A study of Mus musculus with 12 samples.

Results

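The genes described here are 9 genes of antigen presentation by major histocompatibility complex (MHC) class II, measured by RNA sequencing in mouse lung tumors and normal mouse lung. They are H2-Aa, H2-Ab1, H2-Eb1, H2-DMa, H2-DMb1, Cd74, Ciita, Ctss and Ifi30, chosen by symbol as the main parts of the pathway. All 9 were found among the 30399 genes listed, and all 9 passed the filter on low values used for the test (a mean of at least 1 normalized count over the 12 samples).

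MHC class II molecules are pairs of an alpha and a beta chain that carry peptides from swallowed and internalised proteins to the cell surface, where CD4+ T cells read them. New pairs are held by the invariant chain, which endosomal proteases trim until only a short fragment fills the groove, and the DM molecule then exchanges that fragment for other peptides. In lung, dendritic cells, B cells and many macrophages carry class II, alveolar type 2 cells are known to carry it too, and the co-activator CIITA switches the genes on together, in many cell types under interferon gamma.

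The study made mouse lung cancer models by CRISPR/Cas9 mutagenesis without a virus, and the labels divide its 12 samples into 5 of normal lung and 7 of tumor. Strain, age, the genes targeted in each tumor and the treatment of the normal lung donors are not given in the sources used here. Tissue was kept in RNAlater, and sequencing followed poly-A selection. Tumor titles hold only 4 distinct numbers, since tumors 3 and 4 share one and tumors 5, 6 and 7 share another, and the titles of tumors 1 and 7 hold the Spanish word for trachea. Nothing in the labels says what these numbers stand for or that the samples came from separate animals, so p-values measure the spread between these samples, which may in part be technical or within an animal.

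Values are normalized counts (reads divided by a size factor for each sample). Normal lung libraries held 11126432 to 17032234 reads and tumor libraries 13093843 to 24217633, and 3 reads were worth at most 4.85 normalized counts in a lung library and 3.57 in a tumor library. The summed markers of alveolar type 2 cells, 191197 to 260269 in the lungs against 739 to 3153 in the tumors, did not overlap between the groups. Those of neuroendocrine cells, 167 to 197 in the lungs against 23106 to 107256 in the tumors, did not overlap either. Tumor 7 stood apart by its leukocyte markers and by heart muscle markers, which summed to 24839 normalized counts there against 172 to 3247 in normal lung and 7.93 to 1348 in the other tumors. Calls of the tests that change without tumor 7 are given both ways.

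The class II genes share a promoter element that holds the CIITA-recruiting complex, made of an X part bound by RFX proteins and a Y part, a reversed CCAAT box bound by NF-Y. The stretches below are shown as a description of these genes, and no link between them and the levels in the samples was tested. They come from RefSeq promoter windows of 300 bases (250 before to 50 after a gene start, build GRCm38.p6), run 5′ to 3′ on the gene's strand, and carry in capitals the letters GNAAC, as a short core of the X part, and GATTGG, as the Y part.
H2-Aa: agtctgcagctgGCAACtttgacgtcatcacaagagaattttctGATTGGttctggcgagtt
H2-Eb1: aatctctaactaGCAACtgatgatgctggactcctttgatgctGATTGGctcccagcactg
H2-DMb1: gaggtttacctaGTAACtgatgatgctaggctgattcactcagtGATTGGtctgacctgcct
H2-Ob: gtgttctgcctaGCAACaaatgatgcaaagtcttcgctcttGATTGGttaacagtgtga
H2-Eb2: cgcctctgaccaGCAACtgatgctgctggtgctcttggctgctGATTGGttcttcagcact
H2-DMb2: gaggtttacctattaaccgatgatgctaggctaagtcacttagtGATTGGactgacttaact

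These stretches all lie on chromosome 17, at chr17:34287855-34287916 on the minus strand for H2-Aa and, on the plus strand, at chr17:34305764-34305824 for H2-Eb1, chr17:34153085-34153146 for H2-DMb1, chr17:34238806-34238864 for H2-Ob, chr17:34325531-34325591 for H2-Eb2 and chr17:34145114-34145175 for H2-DMb2. H2-Ob, H2-Eb2 and H2-DMb2 are further class II genes outside the 9. The start of GATTGG lay 49 bases before the gene start in H2-Aa, 60 in H2-Eb1, 62 in H2-DMb1, 58 in H2-Ob, 101 in H2-Eb2 and 91 in H2-DMb2. The starts of both motifs were 32 bases apart in H2-Aa and H2-DMb1, 31 in H2-Eb1 and H2-Eb2, and 29 in H2-Ob. H2-DMb2 held GATTGG without GNAAC in front of it at that distance.

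Windows were found for 6 of the 9 genes (not H2-Ab1, Cd74 and Ciita), and 3 of those 6 held the pair. GATTGG, searched on both strands, was found in 4 of the 6. Over all 32851 windows, 16.1% held GATTGG and 0.651% held GNAAC followed by GATTGG with starts 25 to 35 bases apart. The motif letters and the spacing were set after these sequences were seen, so the difference in share is a description. H2-DMa and Ifi30 had a window without the pair, which says only that these letters are not in it. Ctss carried instead the letters GAAA as a pair with 2 bases between, a form of the interferon-stimulated response element that 3.44% of all windows held on either strand; its stretch, with the motif in capitals, lies at chr3:95526741-95526798 on the plus strand.
Ctss: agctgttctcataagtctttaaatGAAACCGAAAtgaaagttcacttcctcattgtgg

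H2-Aa and H2-Ab1 (ENSMUSG00000036594 and ENSMUSG00000073421) encode the alpha and beta chain of the H2-A molecule, and H2-Eb1 (ENSMUSG00000060586) the beta chain of H2-E. H2-Aa stood at 10099, 11905, 15435, 14437 and 4641 normalized counts in normal lungs 1 to 5. In tumors 1 to 7 it stood at 132, 29.8, 28.8, 498, 1441, 6701 and 26589. Tumors 1 to 5 lay below every normal lung, tumor 6 lay between lung 5 and the other lungs, and tumor 7 lay above all of them. The 5 lungs averaged 11304 ± 4275 (SD, n = 5), and the 7 tumors 5059.9 ± 9789 (SD, n = 7), an SD larger than its mean.

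H2-Ab1 ranged over normal lung from 6125 to 16810 normalized counts with a median of 11510.1. Over tumors 1 to 7 it stood at 132, 48.8, 23.8, 393, 1964, 9204 and 40544. H2-Eb1 ranged over normal lung from 4002 to 13349 with a median of 8489.8. Its tumor values were 103, 23.8, 9.91, 374, 1655, 8007 and 32927. Both beta chains repeated the pattern of H2-Aa, with 5 tumors below all lungs, tumor 6 inside their range and tumor 7 above it. The highest tumor value exceeded the lowest 925-fold for H2-Aa, 1704-fold for H2-Ab1 and 3321-fold for H2-Eb1, while the same ratio over normal lungs was 3.33, 2.74 and 3.34.

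Cd74 (ENSMUSG00000024610), the invariant chain that escorts new class II pairs, stood at 24095, 23965, 37917, 28753 and 13976 normalized counts in normal lungs 1 to 5. In tumors 1 to 7 it stood at 317, 94.1, 83.3, 1209, 3336, 15116 and 50881. Its place against normal lung was that of the classical chains, with tumor 6 inside the range of the lungs and tumor 7 above it. The lungs averaged 25741 ± 8683 (SD, n = 5) and the tumors 10148 ± 18749 (SD, n = 7).

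H2-DMa and H2-DMb1 (ENSMUSG00000037649 and ENSMUSG00000079547) encode the alpha chain of DM and one of its beta chains. H2-DMb1 stood at 1346, 1430.0, 1980.1, 1947 and 710.5 normalized counts in normal lungs 1 to 5. In tumors 1 to 7 it stood at 22.8, 4.77, 3.97, 32.3, 145.6, 609 and 2755. Tumors 1 to 6 lay below every normal lung here, and tumors 2 and 3 were close to the value of 3 reads. H2-DMa stood at 1058, 1092, 1767, 1460.0 and 736 in normal lungs 1 to 5 and at 96.9, 147, 44.6, 111, 204, 637 and 2466 in tumors 1 to 7. It was lower than every normal lung in the same 6 tumors, but its lowest tumor value was 44.6 against 3.97 for H2-DMb1.

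Ciita (ENSMUSG00000022504), the co-activator that class II transcription depends on, stood at 334, 187.1, 326, 179 and 205 normalized counts in normal lungs 1 to 5. In tumors 1 to 7 it stood at 29.1, 19.1, 7.93, 9.88, 55.0, 186 and 387. Tumors 1 to 5 were below all lungs, tumor 6 was inside their range and tumor 7 was above it. Tumor 4 was the second lowest for Ciita, although for H2-Aa, H2-Ab1, H2-Eb1, H2-DMb1 and Cd74 it was above tumors 1, 2 and 3.

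Ctss (ENSMUSG00000038642), cathepsin S, the protease that makes the last cuts in the invariant chain, ranged over normal lung from 1732 to 5099 normalized counts with a median of 2465. In tumors 1 to 7 it stood at 406, 150.1, 88.2, 691, 391, 970.4 and 4799. Tumor 7 lay inside the range of normal lung for Ctss, alone among the 9 genes. Ifi30 (ENSMUSG00000031838), the lysosomal thiol reductase GILT that opens disulfide bonds of proteins to be presented, stood at 546, 613, 1013, 947 and 607 in normal lungs 1 to 5. Its tumor values were 395, 689.7, 182, 311, 265, 478 and 1351. Tumor 2 was inside the range of normal lung for Ifi30, and the highest tumor exceeded the lowest 7.41-fold, the narrowest tumor range of the 9 genes.

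**Figure D1:**
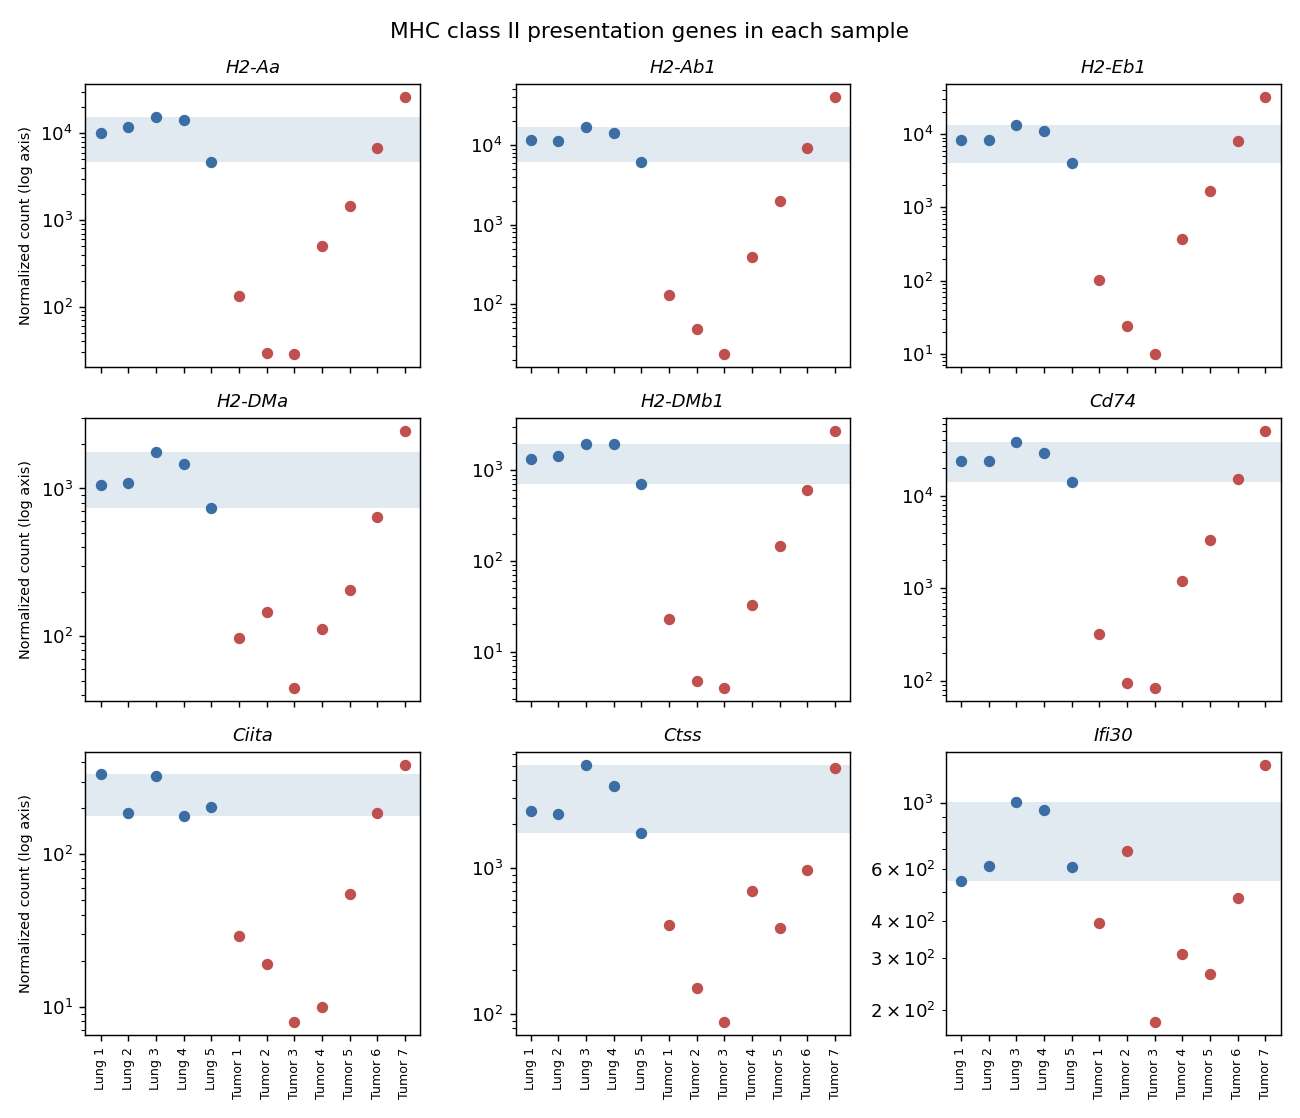
Normalized count of each of the 9 class II genes (log axis) in normal lungs 1 to 5 (blue points) and tumors 1 to 7 (red points), 1 point per sample; the blue band spans the 5 normal lungs. Tumor 3 is the lowest tumor and tumor 7 the highest tumor in 9 of 9 panels, and tumor 7 is above the band in 8 of 9.

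The tumors took nearly the same order in each gene. Tumor 3 was the lowest tumor and tumor 7 the highest in 9 of 9 genes, and the order 3, 2, 1, 4, 5, 6, 7 from low to high held in full in 5 of 9 (the 3 classical chains, Cd74 and H2-DMb1). Among tumors 5, 6 and 7, whose titles share a number, 7 was above 6 and 6 above 5 in 9 of 9 genes, and of tumors 3 and 4, which share another, 4 was above 3 in 9 of 9. The genes were measured in the same libraries, so these counts are not independent of each other. Normal lungs kept an order too, with lung 5 lowest in 7 of 9 genes and lung 3 highest in 8 of 9.

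Set against normal lung one by one, tumors 1, 3, 4 and 5 were below every normal lung in 9 of 9 genes, while the share of all 23674 tested genes below every normal lung was 37%, 38%, 37.5% and 36.8% in these tumors. Tumor 2 was below in 8 of 9 (38.4% of all tested genes) and tumor 6 in 4 of 9 (35.7%), with the other 5 inside the range. Tumor 7 was above every normal lung in 8 of 9, where 38.1% of all tested genes were. In none of the 9 did all 7 tumors lie below all 5 lungs, which 18.4% of tested genes did.

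In tumor 7 the difference from the normal lung mean on the log2(value + 1) scale was 1.35 for H2-Aa, 1.84 for H2-Ab1 and 1.97 for H2-Eb1. It was 1.06 for Cd74, 1.075 for H2-DMa, 0.98 for H2-DMb1, 0.71 for Ciita, 0.76 for Ctss and 0.91 for Ifi30. In tumor 3 the difference was -8.46 for H2-Aa, -8.83 for H2-Ab1, -9.59 for H2-Eb1 and -8.18 for Cd74, but -1.98 for Ifi30. The SD over normal lungs on this scale was at most 0.70 for any of the 9, and over tumors it ran from 0.95 for Ifi30 to 4.28 for H2-Eb1.

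The comparison of all tumors with normal lung used limma on log2(value + 1) over 23674 genes, two-sided, with Benjamini-Hochberg adjustment, and called a gene at an adjusted p under 0.05. It called 8 of the 9 genes lower in tumors and 0 higher, where it called 30.1% of all tested genes lower and 31.4% higher. The median log2 fold change was -4.13 over the 9 genes and 0.04 over all tested genes. H2-DMb1 had the lowest log2 fold change of the 9, -4.40 (SE 1.35, limma adjusted p = 0.0121). The classical chains gave -4.24 for H2-Aa (SE 1.49, adjusted p = 0.0240), -4.18 for H2-Eb1 (SE 1.68, adjusted p = 0.0442) and -4.13 for H2-Ab1 (SE 1.56, adjusted p = 0.0336). Cd74 gave -4.19 (SE 1.40, adjusted p = 0.0190). Ctss, Ciita and H2-DMa gave -2.53, -2.50 and -2.42, with adjusted p-values of 0.0109, 0.0185 and 0.0151. Ifi30 did not pass, with -0.75 (SE 0.41, adjusted p = 0.126).

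These calls depended on the test and on tumor 7. The count tests compare means of reads, to which tumor 7 contributes most, and were run on the reads of 11 samples, without tumor 3. edgeR's quasi-likelihood test called 0 of 9 genes lower (26.3% of all genes it tested), with 0 at an unadjusted p under 0.05, log2 fold changes from -1.19 to -0.22 and adjusted p-values from 0.185 to 0.894. DESeq2 also called 0 of 9 (26.1% of its genes), with 0 at an unadjusted p under 0.05. With tumor 7 left out as well, edgeR called 7 of 9 lower (32.2% of its genes), all but H2-Ab1 (-2.31, adjusted p = 0.0858) and H2-Eb1 (-2.13, adjusted p = 0.121). Without tumor 7, limma called 9 of 9 lower (32.1% of its genes), with -5.17 for H2-Aa (adjusted p = 0.00221), -5.12 for H2-Ab1 (0.00288), -5.21 for H2-Eb1 (0.00528), -5.06 for Cd74 (0.00172) and -1.02 for Ifi30 (0.0110). With any 1 of lungs 1 to 4 or tumors 1 to 4 left out, limma called 6 of 9, since H2-Ab1 and H2-Eb1 no longer passed, and without lung 5 H2-Eb1 did not pass. The direction was negative for all 9 genes in every one of these fits.

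**Figure D2:**
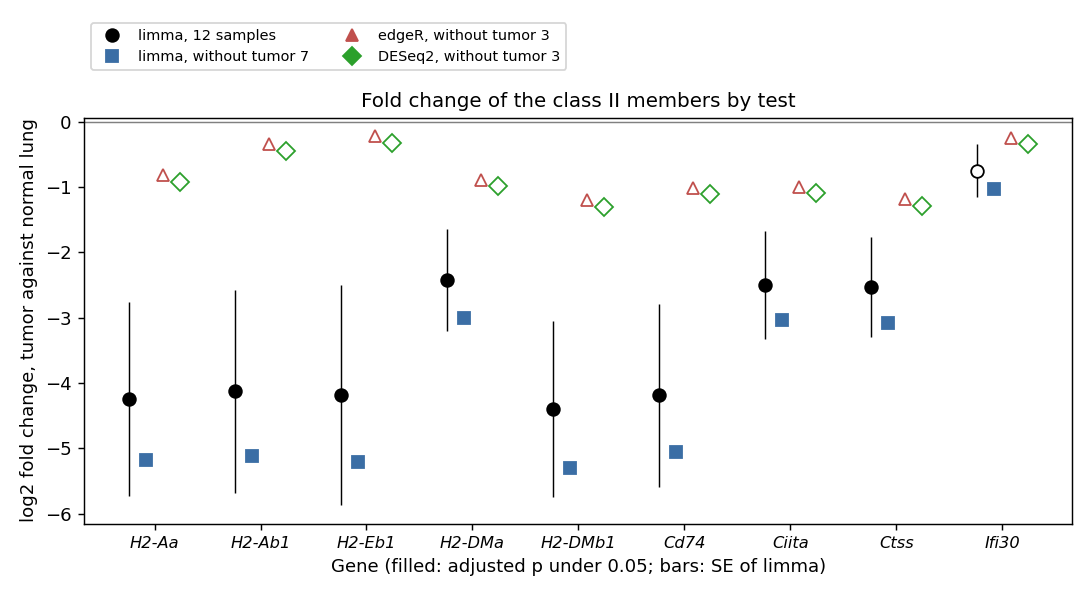
Log2 fold change of tumor against normal lung (vertical axis) for each of the 9 genes by limma on 12 samples (bars: SE), limma without tumor 7, edgeR and DESeq2 (both without tumor 3); filled symbols have an adjusted p under 0.05. The limma symbols of H2-Aa are filled at -4.24 and, without tumor 7, at -5.17, while all 9 edgeR and all 9 DESeq2 symbols are open and lie between -1.30 and -0.22.

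Divided by the length of a gene's exons, levels within normal lung spanned a wide range. The length joins all annotated exons of a gene, used or not, and the order depends on it. Before division, H2-Aa (mean 11304 in normal lung) was above H2-Eb1 (9076). Cd74 was the highest of the 9 with 15331 ± 5172 normalized counts per kb of exon (SD, n = 5), and it was above the next gene in 5 of 5 lungs. H2-Eb1 (4669 ± 1796) and H2-Ab1 (4647 ± 1544) differed by less than the spread between lungs, H2-Eb1 being higher in 3 of 5. Below them in level per kb came H2-Aa (2976 ± 1125), Ctss (2248 ± 983), H2-DMb1 (882 ± 309), Ifi30 (759 ± 221) and H2-DMa (355 ± 115). The adjacent pairs H2-Aa and Ctss, and H2-DMb1 and Ifi30, kept that order in 4 of 5 lungs and differed in mean by less than the SD, while H2-Ab1 was above H2-Aa, Ctss above H2-DMb1 and Ifi30 above H2-DMa in 5 of 5. Ciita, which encodes a regulator and not a presenting protein, was lowest at 25.8 ± 8.10 per kb.

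Although the genes moved together, their proportions did not stay fixed. The invariant chain stood at 0.726 to 0.946 of the summed classical chains (H2-Aa, H2-Ab1 and H2-Eb1) in normal lung. The ratio was 0.862, 0.919, 1.33 and 0.955 in tumors 1 to 4, and 0.659, 0.632 and 0.509 in tumors 5, 6 and 7, which all lay below every normal lung. Tumors 3 and 4 lay above every normal lung in this ratio, tumor 3 on a total of few reads.

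H2-DMa stood at 0.750 to 1.04 of H2-DMb1 in normal lung. The ratio was 4.25, 30.8, 11.3 and 3.44 in tumors 1 to 4, then 1.40, 1.05 and 0.895 in tumors 5, 6 and 7. Only tumor 7 lay inside the range of normal lung, and in tumors 1 to 4 H2-DMb1 was further below normal lung than H2-DMa was. H2-DMa overlaps Brd2, a broadly expressed bromodomain gene on the opposite strand, in the GENCODE M21 annotation, and Brd2 stood at 4949 to 5317 normalized counts over the lungs and 5467 to 8435 over the tumors. Whether the counting used strand is not given in the sources used here, so reads of Brd2 counted for H2-DMa cannot be told apart from reads of H2-DMa.

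The same limit touches Ciita, which overlaps Dexi on the opposite strand; Dexi stood at 1185 to 1599 in normal lung and 721 to 1178 in tumors. H2-Eb1 and Ifi30 overlap other annotated genes as well. H2-DMb1 and H2-DMb2, and H2-Eb1 and H2-Eb2, are related genes whose transcripts were not compared here. Their separate values are uncertain wherever reads could fit both.

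Per unit of Ciita, the summed classical chains stood at 72.2 to 221 in normal lung. In tumors 1, 2 and 3 the ratio was 12.6, 5.38 and 7.88, below every normal lung, while tumors 4, 5 and 6 were inside the range with 128, 92.0 and 129 and tumor 7 was above it with 258. In the 3 tumors with the fewest class II reads, the chains were thus lower relative to their co-activator than in any normal lung. Ciita stood at only 19.1, 7.93 and 9.88 in tumors 2, 3 and 4, so the ratio there rests on few reads. Any reads of Dexi counted for Ciita would lower the ratio, and they cannot be told apart.

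Other class II genes listed with the pathway were 3, and limma called 3 of 3 lower (30.1% of all tested genes were). H2-DMb2, a second DM beta chain, stood at 414 to 932 normalized counts over the lungs and at 4.43, 1.19, 0, 1.80, 42.9, 123 and 904 in tumors 1 to 7 (limma log2 fold change -5.54, adjusted p = 0.00411). H2-Ob, the beta chain of the DO molecule that restrains DM in B cells, stood at 804 to 1797 in normal lung and at 2.53, 2.38, 1.98, 0.898, 77.7, 235 and 984 in tumors (-5.93, adjusted p = 0.00290). H2-Eb2, a second E beta chain, stood at 95.4 to 349 in normal lung and at 0, 0, 1.98, 0, 8.09, 73.5 and 784 in tumors (-4.62, adjusted p = 0.0156). In tumors 2, 3 and 4 all 3 genes were at or under the value of 3 reads, so their fold changes there depend on the pseudocount. H2-Ob and H2-DMb2 did not go above normal lung in tumor 7 as the classical chains did. edgeR called 0 of these 3 (26.3% of all its genes were called lower), with 0 at an unadjusted p under 0.05 and adjusted p-values of 0.211, 0.115 and 0.825. Its adjusted p-values with tumor 7 also left out were 0.00252, 0.00605 and 0.0212, on negative fold changes. Without tumor 7, limma called 3 of 3 (32.1% of its genes were called lower). H2-Oa was not analysed here.

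Among the endosomal proteases, limma called 5 of 6 lower (30.1% of all tested genes were). These were Ctsh (-3.69, limma adjusted p = 2.97e-04), Ctsd (-1.90, adjusted p = 8.3e-05), Ctsz (-1.10), Ctsb (-0.98) and Ctsl (-0.85). Lgmn, asparagine endopeptidase, gave -0.43 (limma adjusted p = 0.236) and, without tumor 7, -0.64 (limma adjusted p = 0.0209), where 6 of 6 were called (32.1% of all genes in that fit). Cathepsin H had the widest gap of these, at 3282 to 4258 normalized counts over the lungs and 58.5 to 2137 over the tumors, with every tumor below every lung. Ctsd was likewise below in every tumor, at 448 to 698 in normal lung and 108 to 385 in tumors. edgeR called 4 of the 6 (26.3% of all its genes were called lower), all but Ctsb (adjusted p = 0.207) and Lgmn. Leaving out tumor 7 as well, edgeR gave Ctsb an adjusted p of 0.00196 and Lgmn 0.061.

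Of 7 genes of the transcription machinery that binds the class II promoter, limma called 3 higher and 0 lower, where it called 31.4% of all tested genes higher. Without tumor 7 it called 3 higher and 1 lower (32.6% and 32.1% of all genes in that fit). Nfyb, a subunit of NF-Y, stood at 455 to 567 in normal lung and at 659.7 to 1602 in tumors, each tumor above each lung (1.12, adjusted p = 1.88e-04). Rfxap, a subunit of the RFX complex, stood at 369 to 587 in normal lung and 600.2 to 1284 in tumors, again without overlap (0.94, adjusted p = 0.00213). The share of all tested genes with every tumor above every lung was not counted. Rfx5, the DNA-binding subunit, stood at 174 to 313 in normal lung and 298 to 556 in tumors (0.69, adjusted p = 0.00736), and tumor 7 was its lowest tumor. Rfxank, the remaining RFX subunit, gave -0.48 (adjusted p = 0.123) and was the gene called lower without tumor 7 (-0.62, limma adjusted p = 0.0229). Nfya, Nfyc and Creb1 gave 0.35, 0.05 and -0.16 and were not called by limma, while edgeR called Nfya higher (adjusted p = 0.0362). That edgeR call was lost with tumor 7 also left out (adjusted p = 0.0867).

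Of the 7 genes of the interferon gamma arm, limma called 6 lower, where it called 30.1% of all tested genes lower. Irf1, an interferon-induced transcription factor upstream of Ciita, stood at 2172 to 3498 normalized counts over the lungs and 386 to 1349 over the tumors, without overlap (-1.96, limma adjusted p = 1.7e-05). The receptor chains Ifngr1 and Ifngr2 gave -2.04 and -1.92, and the receptor kinase Jak1 gave -1.43, with every tumor (699 to 1732) below every lung (2621 to 2939). Jak2 gave -0.28 (limma adjusted p = 0.478) and had its highest value of 2438 in tumor 7. Without that tumor it was called lower (-0.55, limma adjusted p = 0.0291), and so were 7 of 7 genes of the arm (32.1% of all genes in that fit). The cytokine Ifng itself was near the detection limit, at 2.30 to 29.1 in normal lung and 0 to 8.33 in tumors (-2.39, adjusted p = 0.00585), and 5 of 7 tumors were under the value of 3 reads. edgeR called 5 of the 6 genes of this arm that it tested lower (26.3% of all its genes were).

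Over the whole pathway list of 25 genes found of 26 listed, limma called 14 lower, 3 higher and left 8 uncalled. Of all tested genes it called 30.1% lower and 31.4% higher. The median log2 fold change was -0.98 over the list against 0.04 over all tested genes. edgeR called 9 lower and 4 higher of the 24 it tested (26.3% of all its genes were called lower and 34.9% higher). DESeq2 called 9 lower and 3 higher (26.1% and 32.3% of its genes), and limma without tumor 7 called 17 lower and 3 higher (32.1% and 32.6%). With tumor 7 also left out, edgeR called 13 lower and 3 higher (32.2% and 34.4% of its genes). The ubiquitin ligases that send class II for breakdown, Marchf1 (-0.65, limma adjusted p = 0.434) and Marchf8 (-0.33, adjusted p = 0.166), were not called.

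**Figure D3:**
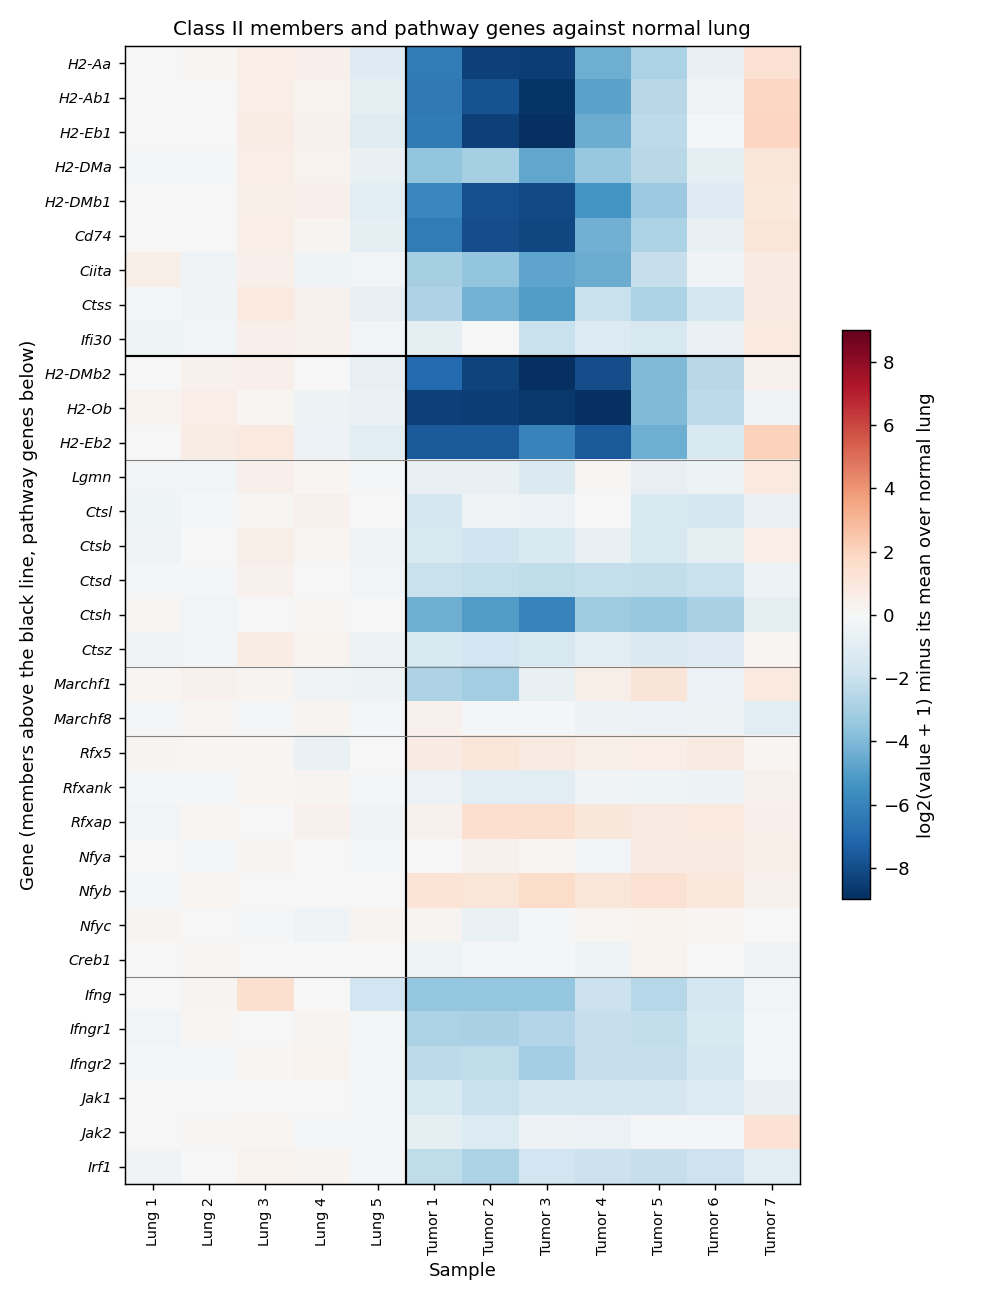
Difference of each sample from the normal lung mean on the log2(value + 1) scale (color) for the 9 class II genes (above the black line) and 24 of the 25 pathway genes (below it, grouped by role); columns are normal lungs 1 to 5 and tumors 1 to 7. Blue runs through most class II genes in tumors 1 to 5 and turns red in tumor 7, where H2-Eb1 reaches 1.97. Ifi30 is paler, at -0.06 in tumor 2, and the rows of Rfx5, Rfxap and Nfyb are only faintly red in most tumors.

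Bulk tissue mixes cells, so fewer cells that carry class II and less class II RNA per cell cannot be told apart in these samples. Markers of several cell types that carry class II differed between the groups as well, and their part in the result was not tested. Of 50 marker genes found of 52 listed, limma called 35 lower (30.1% of all tested genes were) and 6 higher (31.4%), and without tumor 7 it called 39 lower (32.1%). edgeR called 21 of 50 lower (26.3% of all its genes), and DESeq2 called 23 lower of the 41 to which it gave an adjusted p (26.1%). With tumor 7 also left out, edgeR called 35 lower (32.2% of its genes). The same shares over all genes stand beside the counts of each single marker list below.

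The 5 leukocyte markers (5 of 5 called lower by limma, 0 by edgeR with 1 at an unadjusted p under 0.05) summed to 12839 to 21862 normalized counts in normal lung. In tumors 1 to 7 they summed to 827, 1215, 484, 1449, 2244, 6681 and 25886, so tumor 3 was lowest and tumor 7 highest, as for the class II genes. Without tumors 3 and 7, edgeR gave each of the 5 leukocyte markers a negative fold change and an adjusted p of 0.00581 or less. Ptprc, the pan-leukocyte antigen CD45, stood at 1988 to 3120 in normal lung and at 56.3, 83.4, 7.93, 80.8, 231, 758 and 3291 in tumors. The summed classical chains per unit of Ptprc stood at 7.43 to 19.9 in normal lung. They stood at 6.52, 1.23, 7.88 and 15.7 in tumors 1 to 4, of which tumors 3 and 4 were inside the range of normal lung, and at 21.9, 31.5 and 30.4 in tumors 5, 6 and 7, above it. So relative to CD45, class II was below normal lung in only 2 of 7 tumors and above it in 3 of 7.

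Ctss and Ifi30 behaved otherwise against CD45. Ctss per unit of Ptprc stood at 0.821 to 1.82 in normal lung, at 7.21, 11.1 and 8.54 in tumors 1, 3 and 4, and at 1.28 to 1.80 in the other tumors. Ifi30 per unit of Ptprc stood at 0.186 to 0.475 in normal lung and at 7.01, 8.27, 23.0, 3.84, 1.15, 0.630 and 0.411 in tumors 1 to 7. Tumor 7 was inside the range of normal lung in that ratio, and the other 6 were above it. Both ratios of tumor 3 rest on few reads of Ptprc, which stood at 7.93 there.

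Dendritic cell markers were called lower in 4 of 6 by limma, in 6 of 6 by limma without tumor 7 and in 1 of 6 by edgeR. They summed to 3759 to 4267 in normal lung and to 897, 658, 903, 594, 1246, 3886 and 9760 in tumors 1 to 7. Zbtb46 alone made up 884 of the 897 in tumor 1, while Clec9a, a receptor of type 1 conventional dendritic cells, was at 4.43 there. Clec9a stood at 1305 to 1866 in normal lung, at 4.43 to 25.02 in tumors 1 to 4 and at 328, 1671 and 3905 in tumors 5, 6 and 7. Xcr1, the chemokine receptor of the same subset, stood at 77.03 to 213 in normal lung, at 112, 508 and 1376 in tumors 5, 6 and 7 and at 0 to 2.38 in the others. Tumors 6 and 7 thus exceeded normal lung for Xcr1, and tumor 7 did so for Clec9a. Cd209a, a lectin of other dendritic cells, stood at 135 to 344 in normal lung and at 0 to 10.2 in tumors.

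B cell markers, called lower in 4 of 4 by limma and by edgeR, summed to 2529 to 5320 in normal lung and to 44.9 to 1193 in tumors, and the highest of these was tumor 7, still below every normal lung. Pax5, a transcription factor of B cells, stood at 730.1 in tumor 7, inside its range of 477 to 1459 in normal lung. H2-Ob per unit of H2-DMb1 was 0.446 to 1.26 in normal lung. It was 0.111, 0.0278, 0.385 and 0.357 in tumors 1, 4, 6 and 7, below every normal lung, and inside the range in tumors 2, 3 and 5. H2-Ob was under the value of 3 reads in tumors 2, 3 and 4 and close to it in tumor 1. The ratio in tumors 1 to 4 therefore rests on few reads, and their place against normal lung is uncertain. T cell markers were called lower in 4 of 5 by limma, in 5 of 5 without tumor 7 and in 1 of 5 by edgeR, and their sum was 702 to 1536 in normal lung and 37.7 to 2148 in tumors.

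Macrophage markers were called lower in 7 of 10 by limma, with or without tumor 7, and in 4 of 10 by edgeR. Once tumor 7 was also left out, edgeR gave Adgre1, Cd68 and Fcgr1, which it had not called, adjusted p-values of 7.55e-04, 6.93e-04 and 0.00866. The 10 macrophage markers summed to 8502 to 20245 in normal lung and to 4513, 1582, 1216, 7844, 3075, 7089.8 and 27934 in tumors 1 to 7. Most of the sum in tumors 1 and 4 was C1qa, C1qb and C1qc. These stood at 1212, 1041 and 1345 in tumor 1 and at 2484, 2102 and 1935 in tumor 4. C1qa, a complement subunit made by tissue macrophages, stood at 919.7 to 4516 in normal lung and at 1212, 374, 314, 2484, 773, 1989 and 7788 in tumors, and C1qa, C1qb and C1qc were not called by limma (adjusted p = 0.366, 0.679 and 0.584). Tumors 1 and 4 were inside the range of normal lung for C1qa but far below it for class II. C1qb and C1qc were inside their range in both tumors as well. The other markers of the list, Adgre1, Csf1r, Cd68, Mertk, Fcgr1, Marco and Siglecf, were below every lung in both. Csf1r, for example, stood at 251 and 454 there against 2199 or more in normal lung. The summed classical chains per unit of C1qa stood at 10.1 to 21.1 in normal lung, at 0.303, 0.274, 0.199 and 0.509 in tumors 1 to 4, and at 6.55, 12.02 and 12.8 in tumors 5, 6 and 7. Against C1qa, tumors 1 to 4 lay far below normal lung, tumor 5 below it and tumors 6 and 7 inside its range. This placement depends on the marker chosen. Csf1r stood at 239, 412 and 1773 in tumors 5, 6 and 7, below every normal lung, so a ratio to Csf1r would place these tumors higher.

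Siglecf, a marker of alveolar macrophages, was at 0 in tumors 1 to 4 and reached 69.2 in tumor 7, against 278 to 446 in normal lung. Alveolar type 2 markers (6 of 6 called lower) summed to 1436, 1237, 739, 1152, 3153, 2165 and 947 in tumors 1 to 7, against 191197 or more in normal lung. Endothelial markers were called lower in 5 of 5 and neuroendocrine markers higher in 6 of 6. Tumor 7 had the lowest neuroendocrine sum of the tumors at 23106, and tumor 1 the highest at 107256. Among normal lungs, lung 5, lowest in most class II genes, also had the lowest leukocyte sum (12839), B cell sum (2529) and macrophage sum (8502), and lung 3 had the highest leukocyte (21862) and macrophage (20245) sums.

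**Figure D4:**
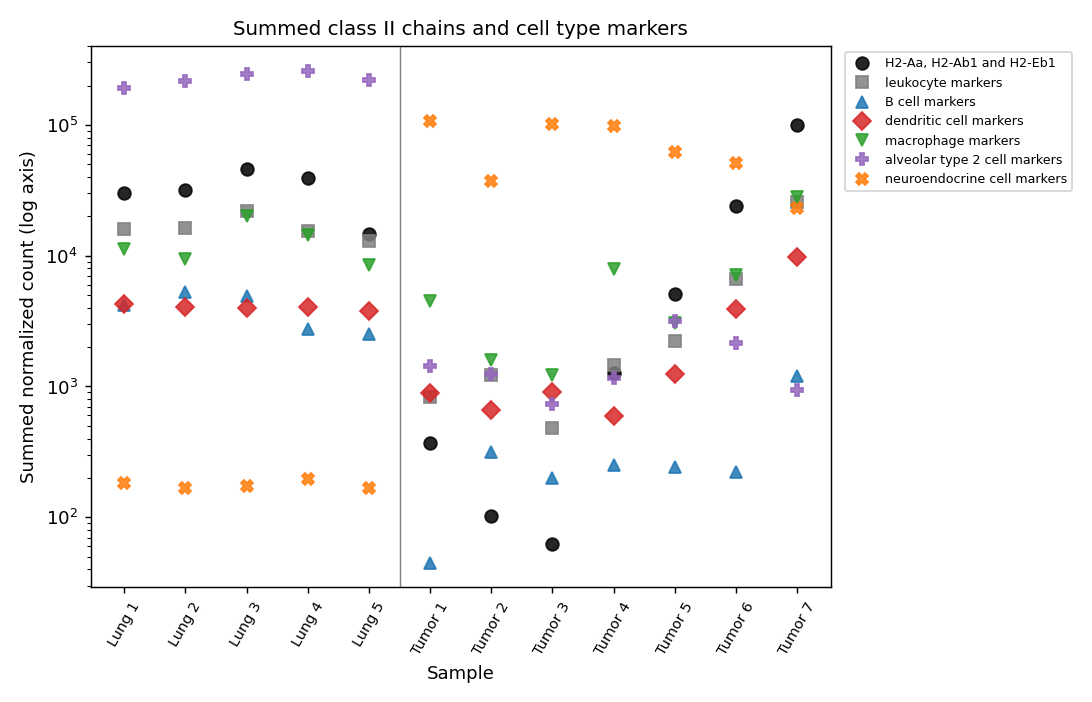
Summed normalized counts (log axis) of the classical chains H2-Aa, H2-Ab1 and H2-Eb1 (black circles) and of each cell type's marker list in normal lungs 1 to 5 and tumors 1 to 7. The class II sum climbs from 62.5 in tumor 3 to 100059.6 in tumor 7, and alveolar type 2 markers stay at 3153 or less in all 7 tumors. Tumor 4 shows macrophage markers at 7844 beside a class II sum of 1265. Most of that 7844 is C1qa, C1qb and C1qc (2484, 2102 and 1935).

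Finally, genes outside these lists were ranked by how closely their log2(value + 1) followed the mean of the 9 genes over the 7 tumors, among 16278 genes with a mean of at least 4 on that scale. The 8 most alike were Cd48 (Pearson r = 0.998), Rab32 (0.998), Flot1 (0.997), Slc25a45 (0.996), Irf5 (0.995), Nckap1l (0.995), Cdh6 (0.993) and Inpp4b (0.992). These values describe 7 points that share libraries and scaling, picked as the highest of many genes, and carry no test. Cd48, a surface glycoprotein of leukocytes, stood at 22.2, 13.1, 4.96, 36.8, 53.4, 199 and 778 normalized counts in tumors 1 to 7 and at 482 to 775 in normal lung. Irf5, a transcription factor of myeloid and B cells, stood at 119, 111, 50.6, 206, 337, 1369 and 4795 in tumors and at 631 to 1391 in normal lung. Nckap1l, a regulator of actin in blood cells, stood at 65.2, 58.4, 18.8, 94.3, 145, 452 and 2231 in tumors and at 732 to 1475 in normal lung. All 8 genes had tumor 3 lowest, tumor 2 second lowest and tumor 7 highest. The ranking selected for that order, so it adds nothing to the likeness. Flot1, a membrane scaffold protein of many cell types, ranged from 269.7 in tumor 3 to 765 in tumor 7.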

How the data were processed

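The deposited table holds 1 column for each of 12 samples and 30399 Ensembl genes, of which 29982 matched a symbol. Per the submitters' processing notes, build GRCm39, featureCounts and DESeq2 were used; versions and roles are not given in the sources used here. The deposited signal values are normalized counts, reads divided by a size factor per sample: in each column the values are whole multiples of the value of 1 read (tolerance 0.01), and whole reads were recovered for 11 samples (all but tumor 3, whose step is too near 1 to check).

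limma 3.58.1 (R 4.3.3) was run on log2(value + 1), with a trend in the prior variance, over 23674 genes with a mean of at least 1. edgeR 4.0.16 (quasi-likelihood, TMM; 18308 genes) and DESeq2 1.42.0 were run on the recovered reads as alternatives. The fits were tested on simulated data. Folds on the log2(value + 1) scale understate changes of low genes. Exon lengths and overlaps came from GENCODE M21, another build, and promoters from RefSeq GRCm38.p6, so only promoter coordinates are given. Replicate numbers follow accession order and pair nothing.

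Named were the 9 genes, 26 pathway genes, 52 markers and the 8 genes most like the 9 over tumors. The genes, lists and tests were chosen with earlier results of these data known. Alternatives covered pseudocounts, filters, scalings, title numbers as blocks or averages, and leaving out each sample. H2-Oa, Ms4a1 and Actc1 were not analysed here. A pathway gene and a marker gene that are part of the list counts are not reported here by themselves.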

Additional observations from a re-analysis of the deposited data

How the results depend on the processing

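No fold change of the 9 class II genes reversed under any of 25 alternatives each. Of these 225 values, 184 kept their side of the threshold, 38 no longer passed and 3 newly passed. Genes called lower among the 9 moved from 8 to 0 with edgeR and 0 with DESeq2, both without tumor 3, and to 7 with edgeR also without tumor 7, a setting chosen after seeing the data. The pathway count called lower moved from 14 to 9 with either count test, and the marker count from 35 to 21 with edgeR and 23 with DESeq2. Leaving out each sample in turn gave 6 to 9 of the 9 genes called lower, 0 called higher, 13 to 17 pathway genes lower and 3 to 4 higher, 32 to 39 markers lower and 6 higher, and, over all genes, 6526 to 7574 lower and 6829 to 7684 higher. The 6 came from 8 of the 12 fits, those without any 1 of lungs 1 to 4 or tumors 1 to 4, in which H2-Ab1 and H2-Eb1 no longer passed, and the 9 from the fit without tumor 7. Scaling all columns to the same total gave 8617 genes higher and 6111 lower, against 7430 and 7124 as deposited, and 7 of the 9 genes lower. No paired analysis was possible because the groups share no replicate number from the labels; with title numbers as a block, 8 of the 9 were still called lower. Depth limits values near or under 3 reads, among them H2-DMb1 in tumors 2 and 3 and Ifng. H2-DMb2, H2-Ob, H2-Eb2, Xcr1, Cd209a and Siglecf were at or under that value in several tumors as well. Ptprc and Ciita both stood at 7.93 in tumor 3, so ratios to them there rest on few reads.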
